A study of Mus musculus with 6 samples.

Results

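DNA replication and mitosis genes are those that cells switch on to copy their chromosomes in S phase and to divide them in mitosis. A set of 34 such genes, 15 of S phase and 19 of mitosis, was looked up by symbol in the deposited count table. Of these, 27 had a row, 13 S-phase and 14 mitotic, among 9088 listed genes. Ccne2, Tyms, Cdk1, Bub1, Tpx2, Cenpf and Hmgb2 were not analysed here. Ccna2, whose product acts in S phase and in G2, was counted with the mitotic genes.

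Thymic tuft cells are chemosensory epithelial cells of the thymic medulla. They were sorted from thymi of male WT mice, whose age the labels do not give, spun into an aggregate, and cultured for 12 h and then for 24 h in fresh medium. Cells of the rIL-13 group then received recombinant interleukin 13, a type 2 cytokine, at 20 ng/mL for 24 h, and cells of the vehicle group received PBS alone for the same 24 h, so both groups had been through the sort and the culture. Each group has 3 bulk libraries made by MARS-seq, a method that tags each captured transcript near its 3' end with a unique molecular identifier (UMI), so that molecules rather than reads are counted. The labels name no separate mice, pools or cultures behind the replicates, so p-values speak of library-to-library spread alone, and that spread may be technical.

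Entry into S phase runs through cyclin E and the E2F transcription factors, which switch on the replication helicase, its loading partners and the enzymes of nucleotide supply. Mitotic genes are switched on later, by complexes that read a promoter element called the cell cycle genes homology region (CHR), and their products build the spindle, condense and attach chromosomes, and then degrade the cyclins. Mature tuft cells of the mouse intestine are known as largely non-dividing cells, and such genes are used there to mark dividing precursors. In bulk libraries, a lower share of cycling cells and less RNA of these genes per cell cannot be told apart.

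The promoters of the 2 groups of genes differed in their letters. The choice of genes did not use these letters, but the letters were picked as elements known from promoters of such genes. The difference is therefore no independent finding. RefSeq promoters (build GRCm38.p6, 250 bases before to 50 after the start) were found for 22 of the 27 genes. On both strands, CHR letters (TTTGAA, or with a CG inside, TTCGAA) were in 9 of 11 mitotic promoters, or 81.8%, and in 2 of 13 S-phase promoters, or 15.4%, against 12.7% of the 5318 promoters of tested genes and 19.2% of all 32851 promoters. Letters of E2F elements (TTCCCGC as the first form, TTGGCGC as the next, then TTCGCGC and, last, TTGCCGC) were in 9 of 13 S-phase promoters, or 69.2%, and in 2 of 11 mitotic ones, or 18.2%, against 16.8% for tested genes and 9.57% of all. The mitotic share of E2F letters and the S-phase share of CHR letters were thus near those of tested genes. The CCAAT box (CCAAT) was in 84.6% of S-phase, 90.9% of mitotic, 37.5% of tested genes' and 37.4% of all promoters. Overlap between motifs was allowed, and an E2F match overlapped a CCAAT box in 1 promoter of each group, those of Mcm7 and Ccnb1. Uhrf1 and Mcm7 each count with more than one promoter, and a match in letters is not a measured binding site.

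The stretches from base -250 to base -3 are shown for Rrm1 and Rrm2, the large and small subunit of ribonucleotide reductase, and for Ube2c and Birc5, as S-phase and mitotic genes with many UMIs. Capitals mark the letters of the 3 kinds of element on either strand. All lie on the plus strand.
Rrm1, chr7:102441445-102441692: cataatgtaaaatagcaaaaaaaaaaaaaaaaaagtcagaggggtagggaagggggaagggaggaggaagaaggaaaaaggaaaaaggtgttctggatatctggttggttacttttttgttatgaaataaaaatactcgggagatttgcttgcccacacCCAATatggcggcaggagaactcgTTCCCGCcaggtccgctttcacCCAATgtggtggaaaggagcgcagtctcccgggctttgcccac
Rrm2, chr12:24708004-24708251: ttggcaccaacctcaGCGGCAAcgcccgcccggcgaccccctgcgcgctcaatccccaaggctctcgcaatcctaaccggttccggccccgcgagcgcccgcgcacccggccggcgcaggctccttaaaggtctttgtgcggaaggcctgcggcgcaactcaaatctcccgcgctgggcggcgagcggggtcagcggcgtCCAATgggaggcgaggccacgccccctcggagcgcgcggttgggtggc
Ube2c, chr2:164769679-164769926: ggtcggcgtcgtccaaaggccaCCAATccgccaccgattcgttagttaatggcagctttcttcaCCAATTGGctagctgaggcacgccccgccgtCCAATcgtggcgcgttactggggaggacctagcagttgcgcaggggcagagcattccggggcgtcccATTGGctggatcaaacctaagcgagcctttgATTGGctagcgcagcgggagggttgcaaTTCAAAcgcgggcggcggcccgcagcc
Birc5, chr11:117848987-117849234: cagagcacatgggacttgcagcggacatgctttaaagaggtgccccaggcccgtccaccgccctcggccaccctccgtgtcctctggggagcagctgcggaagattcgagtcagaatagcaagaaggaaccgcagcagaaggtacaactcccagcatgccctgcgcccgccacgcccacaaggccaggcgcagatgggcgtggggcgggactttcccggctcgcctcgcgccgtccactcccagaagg
The Rrm1 stretch holds an E2F match at base -67 between CCAAT boxes at -91 and -45, and the Rrm2 stretch an E2F match at -235 on the opposite strand and a CCAAT box at -50. The Ube2c stretch holds a CHR match on the opposite strand at -29, nearer the RefSeq start than its 6 CCAAT matches. In GENCODE M21 the Ube2c gene starts at base 164769898, so the end of this stretch, with the CHR match, lies inside the gene there. The Birc5 stretch holds none of these letters.

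The listed genes held 394513 to 489919 UMIs in the vehicle libraries and 248028 to 295614 in the rIL-13 libraries (two-sided exact permutation test, p = 0.1, which is the lowest value for 3 against 3), so rIL-13 values rest on fewer UMIs. All 27 genes had UMIs in all 6 libraries, from 2 for Ccna2 in rIL-13 replicate 3 to 142 for Ube2c in vehicle replicate 3. The tuft cell markers Trpm5, Pou2f3 and Dclk1 and the epithelial marker Epcam were detected in every library. Trpm5 had 124 to 221 UMIs and Epcam 31 to 76, but Pou2f3 had 5 to 20 and Dclk1 7 to 19, which is few. Of 21 markers of thymocytes, which divide heavily in the thymus, 2 were listed. They held 0.000253% to 0.00328% of UMIs in the vehicle and 0.000677% to 0.00209% in the rIL-13 libraries. These shares cover the listed markers alone, and Ptprc, Cd3e and Rag1 were not analysed here. Fibroblast markers (10 of 14 listed) held 0.230% to 0.309% with vehicle and 0.144% to 0.292% with rIL-13.

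No difference between the groups was called for the replication and mitosis genes, which does not show that the groups were alike. None of the 23 that passed the count filter passed the test in either direction (edgeR, adjusted p under 0.05), where 0.0584% of 5135 tested genes passed, 0.0389% higher and 0.0195% lower. DESeq2 called none of the 27 and limma voom none of the 23. The smallest adjusted p was 0.832, for Ube2c. At an unadjusted p under 0.05 edgeR gave 1 gene higher, Ccne1, and 1 lower, Ube2c, against 5.49% of all tested genes, 3.08% higher and 2.41% lower. The filter left out Mcm4, Uhrf1, Ccnb1 and Ccna2, whose fold changes come from an unfiltered fit, which asked for 1 UMI in all. There 0.0770% of 9088 genes passed and 5.38% had an unadjusted p under 0.05, and none of the 27 passed. The filter acts on the number of libraries with enough UMIs, so a gene low in one group could pass through the other.

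**Figure D1:**
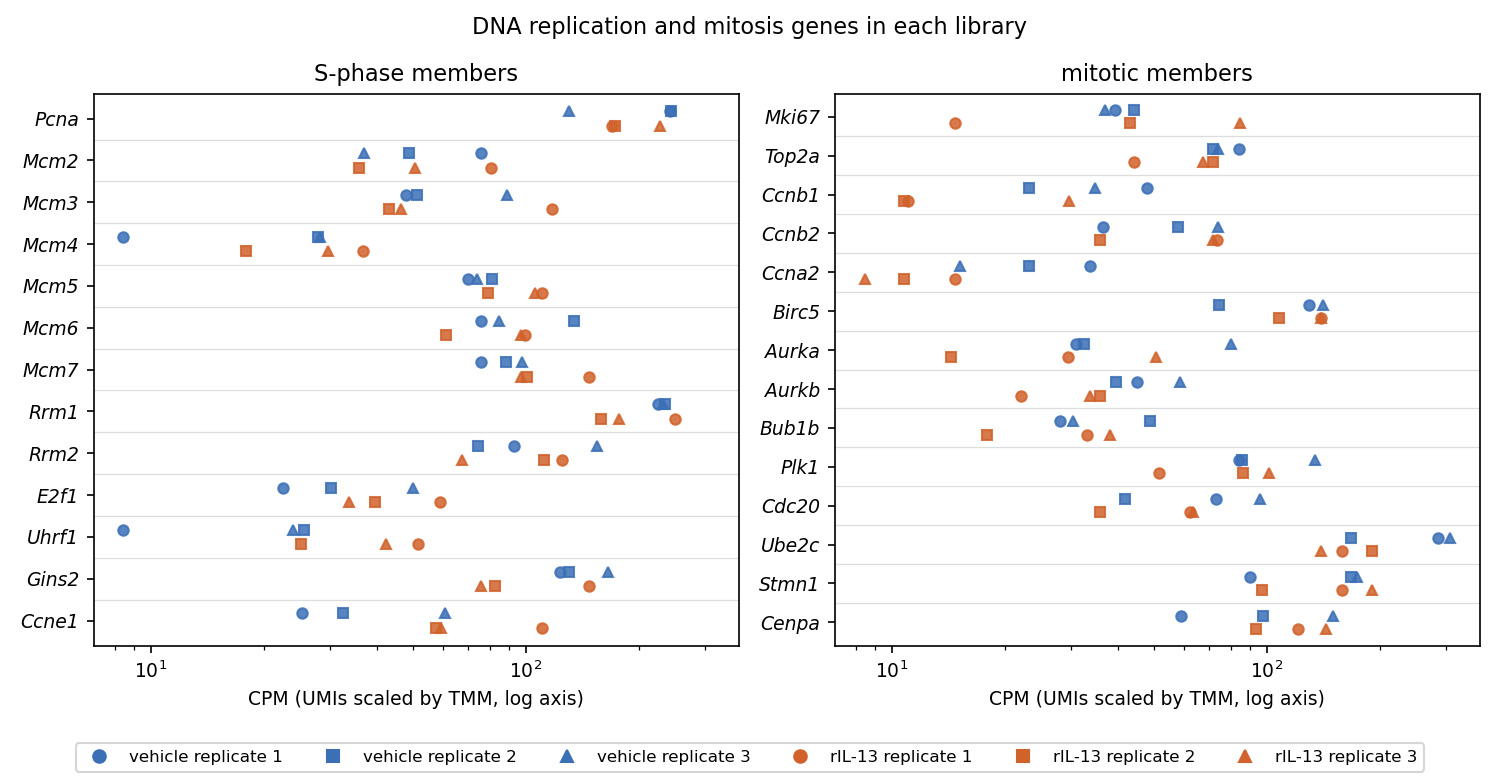
CPM, the UMIs of a gene scaled to library depth (log axis), of each of the 27 genes in each library, vehicle in blue and rIL-13 in orange, with a symbol for each replicate number. The libraries of the groups overlap for all S-phase genes, and for all mitotic genes but Top2a, Aurkb and Ccna2, where the rIL-13 libraries lie lower, 3 of 27 beside 5.94% of all 9088 listed genes lower and 11.1% not overlapping in either direction.

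The highest fold changes among S-phase genes were those of Uhrf1 and Ccne1, and neither passed the test. Ccne1, the cyclin that drives entry into S phase, had 25.3, 32.5 and 60.8 CPM under vehicle and 110.2, 57.5 and 59.1 CPM under rIL-13, each in the order of replicates 1, 2 and 3, as for all genes here. The highest vehicle library lay above 2 of the rIL-13 libraries, and rIL-13 replicate 1 lay far above the rest. The log2 fold change was 0.91 ± 0.41 (SE, n = 3 per group; edgeR adjusted p = 0.860), with a 95% interval from 0.05 to 1.78. It was 0.51 without rIL-13 replicate 1 and 1.37 without vehicle replicate 3. Uhrf1, which guides maintenance of DNA methylation behind the replication fork, had 3, 11 and 11 UMIs under vehicle and 14, 7 and 10 UMIs under rIL-13. Its log2 fold change was 0.98 ± 0.52 when unfiltered (edgeR adjusted p = 0.896), and again rIL-13 replicate 1 was the highest. E2f1, the E2F factor itself, had a mean of 34.2 ± 14.2 CPM under vehicle and 44.0 ± 13.1 CPM under rIL-13 (SD, n = 3 each), a log2 fold change of 0.35 ± 0.43.

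The MCM genes encode the subunits of a single ring, the replicative helicase, and their log2 fold changes ran from -0.21 to 0.39. Mcm7 had 75.8, 88.2 and 97.7 CPM under vehicle and 146.9, 100.5 and 97.1 CPM under rIL-13, or 0.39 ± 0.29 as the log2 fold change (edgeR adjusted p = 0.911). Mcm5 had 70.2, 81.2 and 73.8 CPM under vehicle and 110.2, 79.0 and 105.6 CPM under rIL-13, at 0.38 ± 0.30 (adjusted p = 0.920). For both, the lowest rIL-13 library fell inside the vehicle range. Mcm2, at 75.8, 48.7 and 36.9 CPM under vehicle and 80.8, 35.9 and 50.7 CPM under rIL-13, was at 0.07 ± 0.41 (adjusted p = 0.993). Mcm3, Mcm4 and Mcm6 were at 0.14 ± 0.41, 0.34 ± 0.56 and -0.21 ± 0.33, Mcm4 in the unfiltered fit. Of these subunits all but Mcm6 had their highest CPM in rIL-13 replicate 1. Gins2, a subunit of the GINS complex that activates this helicase, pointed the other way, with 123, 129.9 and 165 CPM under vehicle and 146.9, 82.6 and 76.0 CPM under rIL-13. Its log2 fold change was -0.45 ± 0.30 (edgeR adjusted p = 0.898), and rIL-13 replicate 1 lay among the vehicle libraries, above the other two of its group. Leaving out rIL-13 replicate 1 gave -0.83, and leaving out rIL-13 replicate 3 gave -0.28.

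Genes of the fork clamp and of nucleotide supply had log2 fold changes from -0.24 to -0.08. Pcna, the sliding clamp of the DNA polymerases, had 241, 244 and 130.2 CPM under vehicle and 169, 172 and 228 CPM under rIL-13, or -0.11 ± 0.28 as the log2 fold change (edgeR adjusted p = 0.977). Its highest and its lowest value were both vehicle libraries. Rrm1 had 225, 234 and 232 CPM under vehicle and 249.8, 158 and 177 CPM under rIL-13, at -0.24 ± 0.25 (adjusted p = 0.932). The vehicle libraries lay close together, and the rIL-13 libraries lay on both sides of them. Rrm2 was at -0.08 ± 0.33, with a mean of 107 ± 41.8 CPM under vehicle and 101 ± 29.95 CPM under rIL-13 (SD, n = 3 each).

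Of the 12 tested mitotic genes 7 had a log2 fold change below 0 and 5 above. Cyclins B1 and A2, which activate the mitotic kinase CDK1, had few UMIs. Ccnb1 had 17, 10 and 16 UMIs under vehicle and 3, 3 and 7 UMIs under rIL-13, or 47.7, 23.2 and 34.7 against 11.02, 10.8 and 29.6 CPM. Vehicle replicate 2 lay below rIL-13 replicate 3 after scaling for depth, and the log2 fold change was -1.06 ± 0.56 when unfiltered (edgeR adjusted p = 0.896). Ccna2 had 12, 10 and 7 UMIs under vehicle and 4, 3 and 2 UMIs under rIL-13, at -1.04 ± 0.64 in that fit (edgeR adjusted p = 0.896). Its groups did not overlap in CPM, but by a narrow gap, 15.2 in vehicle replicate 3 and 14.7 in rIL-13 replicate 1. Ccnb2, the other B-type cyclin here, overlapped between the groups, at a mean of 56.1 ± 18.7 CPM under vehicle and 60.4 ± 21.2 CPM under rIL-13 (SD, n = 3 each) and a log2 fold change of 0.08 ± 0.39.

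The ubiquitin ligase that ends mitosis by degrading cyclins (the anaphase promoting complex) is served by Ube2c, its ubiquitin-conjugating enzyme, and Cdc20, its activator. Ube2c had 286, 167 and 308 CPM under vehicle and 158, 190.3 and 139 CPM under rIL-13. Vehicle replicate 2 lay among the rIL-13 libraries, below rIL-13 replicate 2. The log2 fold change was -0.64 ± 0.27 (SE, n = 3 per group; edgeR adjusted p = 0.832), with a 95% interval from -1.21 to -0.07. Cdc20 was at -0.39 ± 0.39, with a mean of 70.1 ± 27.0 CPM under vehicle and 53.9 ± 15.6 CPM under rIL-13 (SD, n = 3 each). Bub1b, the checkpoint kinase that holds Cdc20 back until chromosomes are attached, was at -0.29 ± 0.47.

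The 3 mitotic kinase genes Aurkb, Aurka and Plk1 had log2 fold changes below 0, none past the threshold. Aurkb, the kinase of the chromosomal passenger complex, had 44.9, 39.4 and 58.6 CPM under vehicle and 22.0, 35.9 and 33.8 CPM under rIL-13, so the groups did not overlap. Its log2 fold change was -0.64 ± 0.42 (edgeR adjusted p = 0.877). Aurka, the spindle pole kinase, had 30.9, 32.5 and 80.3 CPM under vehicle and 29.4, 14.4 and 50.7 CPM under rIL-13. Vehicle replicate 3 stood far above the other two of its group, and the log2 fold change was -0.65 ± 0.51 (adjusted p = 0.920). It was -0.30 without rIL-13 replicate 2, -1.14 without rIL-13 replicate 3 and -0.012 without both vehicle replicate 3 and rIL-13 replicate 1. Plk1, which acts from mitotic entry to cell division, had 84.2, 85.9 and 134.6 CPM under vehicle and 51.4, 86.2 and 101 CPM under rIL-13, at -0.36 ± 0.33 (adjusted p = 0.926). Here too vehicle replicate 3 was the highest library and the others overlapped. Birc5 (survivin), a partner of Aurkb in its complex, was on the other side of 0. It had 129.1, 74.3 and 141 CPM under vehicle and 139.6, 108 and 139.4 CPM under rIL-13, at 0.17 ± 0.30 (adjusted p = 0.965).

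Chromosome and spindle genes lay on both sides of 0. Top2a, the topoisomerase that untangles replicated DNA, had 84.2, 71.9 and 73.8 CPM under vehicle and 44.1, 71.8 and 67.6 CPM under rIL-13. The groups did not overlap, but vehicle replicate 2 and rIL-13 replicate 2 were almost equal, and the log2 fold change was -0.32 ± 0.33 (edgeR adjusted p = 0.932). Mki67, the proliferation marker that coats mitotic chromosomes, had 39.3, 44.1 and 36.9 CPM under vehicle and 14.7, 43.1 and 84.5 CPM under rIL-13. Its rIL-13 libraries held both the lowest and the highest value, with the vehicle libraries close together between them, at 0.21 ± 0.48 (adjusted p = 0.976). Cenpa, the histone variant of centromeres, was at 0.20 ± 0.33. Stmn1, a protein that destabilizes microtubules and is also made outside the cell cycle, had 89.8, 167 and 174 CPM under vehicle and 158, 96.9 and 190.1 CPM under rIL-13, at 0.03 ± 0.31 (adjusted p = 0.996).

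**Figure D2:**
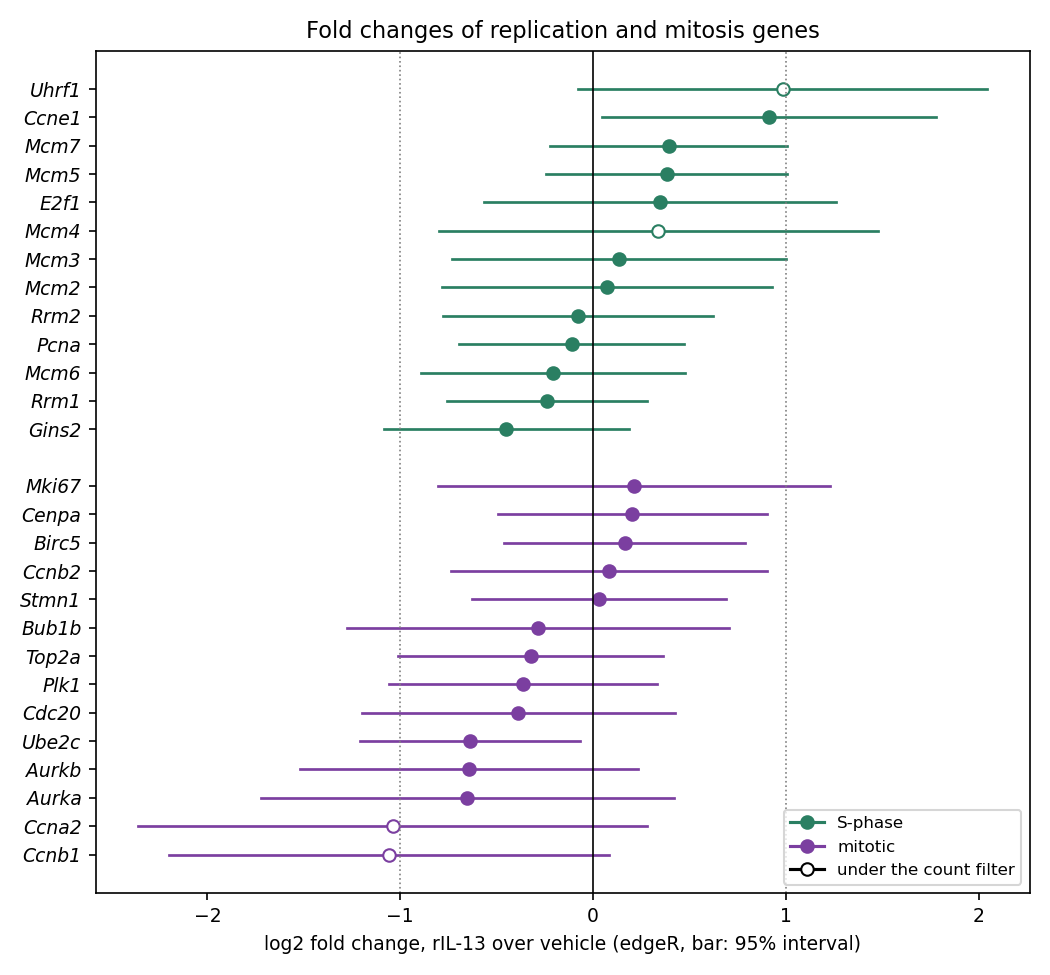
Log2 fold change of each gene, rIL-13 over vehicle, with its 95% interval from edgeR, S-phase genes above and mitotic genes below, and open circles for genes under the count filter. The intervals of Ccne1 and Ube2c lie to one side of 0, and dotted lines mark a 2-fold change in each direction.

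The intervals show what size of change these libraries leave room for. Of 23 tested genes, 9 had a 95% interval wholly within 2-fold in both directions, 5 S-phase and 4 mitotic, against 48.4% of all tested genes. These include Pcna (-0.69 to 0.47), Rrm1 (-0.76 to 0.28), Birc5 (-0.46 to 0.79) and Stmn1 (-0.63 to 0.69). For Aurka (-1.72 to 0.42), Mki67 (-0.80 to 1.23) and Ccnb1 (-2.20 to 0.08) the interval held a 2-fold difference, which these libraries therefore do not exclude. The groups did not overlap in CPM for 2 of the 23 genes, Top2a and Aurkb, both lower, where 5.94% of tested genes lay lower and 5.76% higher without overlap, 11.7% in all.

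S-phase genes had a median log2 fold change of 0.07 (11 tested, 6 above and 5 below 0), and mitotic genes -0.30 (12 tested, 5 above and 7 below), beside 0.00 over all tested genes, of which 50% were below 0. Over all listed genes of each group, in the unfiltered fit, the medians were 0.14 (8 of 13 above 0) and -0.36 (9 of 14 below 0), where 51.6% of all genes were below 0. The medians lay 0.38 apart in the filtered fit. This gap has no test of its own. A like gap was taken in each library, between the median S-phase and median mitotic deviation from the mean of all libraries. It varied within groups with an SD of 0.27 on the log2 scale. That is the spread of single libraries, and a difference between group means would vary less.

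The gap depended on rIL-13 replicate 1. Without this library the medians were -0.16 for S-phase and -0.15 for mitotic genes, a gap of -0.01. Without vehicle replicate 3 they were 0.33 and -0.09, and with both of these libraries removed, a setting chosen after seeing the data, -0.15 and 0.06, a gap of -0.21. Without rIL-13 replicate 2 the medians were 0.39 and -0.16, and without rIL-13 replicate 3 0.23 and -0.48, a gap of 0.71.

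These libraries stand out in the summed UMIs as well. S-phase genes held 0.0986%, 0.113% and 0.115% of UMIs under vehicle and 0.138%, 0.0954% and 0.106% under rIL-13, in replicate order. The exact 95% interval of rIL-13 replicate 1, 0.1253% to 0.152%, lay just above that of every other library, the nearest being vehicle replicate 3 with an upper bound of 0.1252%. Mitotic genes held 0.0963%, 0.0917% and 0.132% under vehicle and 0.0859%, 0.0825% and 0.111% under rIL-13. Here vehicle replicate 3 was the highest, and its interval, 0.122% to 0.143%, overlapped that of rIL-13 replicate 3, 0.0982% to 0.125%, and no other. The group means were 0.109 ± 0.00909% and 0.113 ± 0.0224% for S-phase genes and 0.107 ± 0.0222% and 0.0931 ± 0.0155% for mitotic genes, vehicle before rIL-13 (SD, n = 3 each). Intervals cover counting error alone.

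The ratio of S-phase to mitotic UMIs was 1.02, 1.23 and 0.872 under vehicle and 1.61, 1.16 and 0.956 under rIL-13. It was 1.04 ± 0.181 under vehicle and 1.24 ± 0.335 under rIL-13 (SD, n = 3 each), and the groups overlapped. Of the 13 S-phase genes, 9 had their highest CPM in rIL-13 replicate 1. Of the 14 mitotic genes, 8 had theirs in vehicle replicate 3, and 9 had their lowest in rIL-13 replicate 1 or rIL-13 replicate 2. How often each library held the highest or lowest value over all genes was not counted. The median deviation of S-phase genes from the vehicle mean, on the log2 scale, was 0.64 in rIL-13 replicate 1, -0.07 in replicate 2 and 0.06 in replicate 3, and 0.25 in vehicle replicate 3. For mitotic genes it was -0.57, -0.44 and 0.08 in the same order, and 0.33 in vehicle replicate 3.

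Vehicle replicate 3 and rIL-13 replicate 1 also shared a low level of mesothelial markers, 7 of 7 listed, at 0.133% of UMIs in each, against 0.231% to 0.268% in the other 4 libraries. Tuft cell markers, 23 of 24 listed, held 0.631% to 0.794% in the vehicle libraries, 0.695% in rIL-13 replicate 1, and 1.19% and 1.29% in replicates 2 and 3 of rIL-13. The part of cell makeup in the levels of replication and mitosis genes was not tested.

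**Figure D3:**
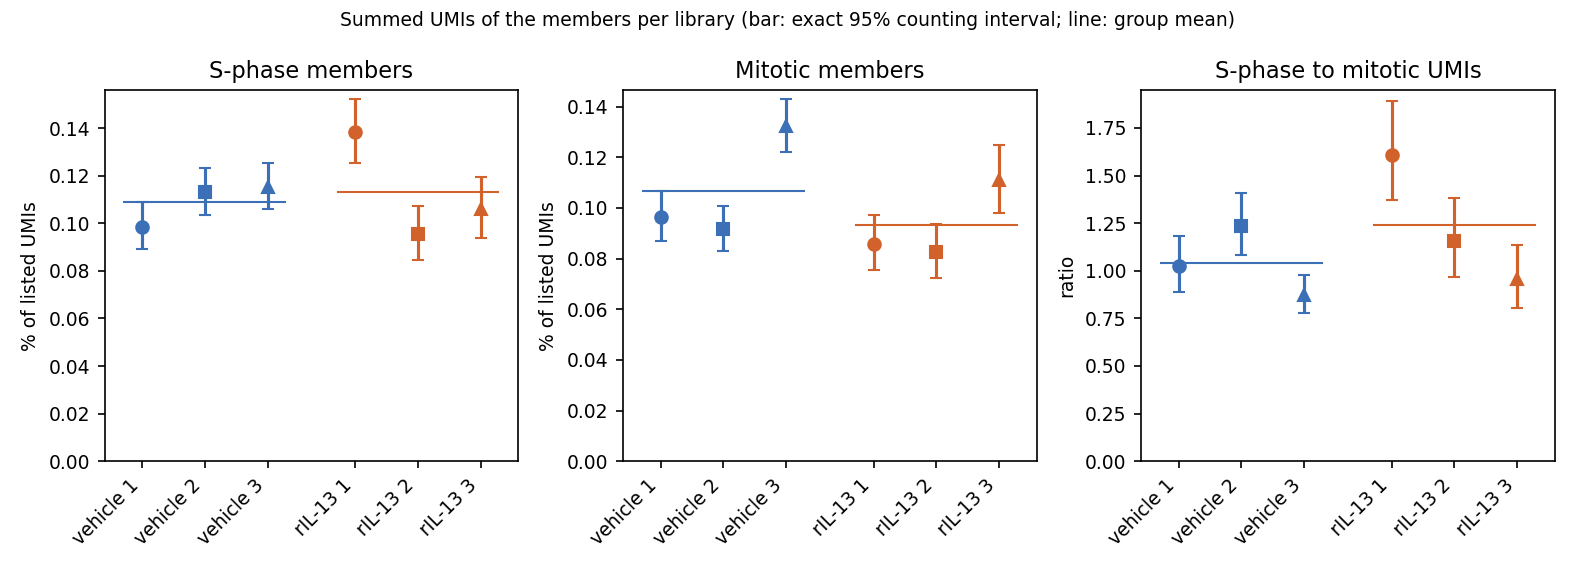
Percent of listed UMIs held by the 13 S-phase genes and by the 14 mitotic genes, and the ratio of these sums, in each library, with exact 95% counting intervals and group means as lines. The S-phase share is highest in rIL-13 replicate 1 at 0.138% and the mitotic share in vehicle replicate 3 at 0.132%.

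The 22 genes with a promoter were also split by promoter letters, in the unfiltered fit. The medians by phase cover all 27 genes, so the 2 splits do not rest on the same genes. The 9 genes with CHR and no E2F letters, 8 of them mitotic, had a median log2 fold change of -0.34, from -0.66 to 0.20, with 6 below 0. The 7 genes with E2F and no CHR letters, 6 of them S-phase, had a median of -0.08, from -1.06 for Ccnb1 to 0.98 for Uhrf1, with 4 below 0, where the S-phase genes as a whole were at 0.14. Over all 9 genes with E2F letters the median was 0.14, and over all 11 with CHR letters -0.29. The 2 genes with both, Mcm7 and Mki67, had a median of 0.29, and the 4 with neither, Birc5, Ccne1, E2f1 and Pcna, 0.25. The ranges of the classes with CHR letters alone and E2F letters alone overlapped.

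Other genes of the cell cycle did not pass either. Of 59 further S-phase genes 45 were listed and 26 tested, with none past the threshold. At an unadjusted p under 0.05 edgeR gave 1, against 5.49% of all tested genes. Of the 26, 15 lay above and 11 below 0, with a median log2 fold change of 0.05. Over all 45 listed, in the unfiltered fit, 24 lay above and 21 below 0, with a median of 0.005, where 51.6% of all genes were below 0. The 2 tested genes with the smallest p were Rpa1, of the protein that coats single-stranded DNA, and Chaf1b, of a histone chaperone at the fork. Rpa1 had 95.4, 102 and 145 CPM under vehicle and 235, 165 and 161 CPM under rIL-13. The groups did not overlap, rIL-13 being the higher, and the fold change was 0.70 ± 0.28 on the log2 scale (edgeR adjusted p = 0.804). Chaf1b was at 0.60 ± 0.39 (adjusted p = 0.871), and its groups overlapped. Of the 26 tested, 3 lay higher without overlap and 0 lower, beside 5.76% and 5.94% of all tested genes.

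Of 76 further G2 and mitosis genes 61 were listed and 32 tested, with none past the threshold. At an unadjusted p under 0.05 edgeR gave 1, against 5.49% of all tested genes. Of the 32, 13 lay above and 19 below 0, with a median of -0.06. Over all 61 listed, in the unfiltered fit, 22 lay above and 39 below 0, with a median of -0.15, where 51.6% of all genes were below 0. Psrc1, of a spindle protein, had 92.6, 62.7 and 60.8 CPM under vehicle and 33.1, 14.4 and 38.0 CPM under rIL-13. The groups did not overlap, and the fold change was -1.34 ± 0.43 on the log2 scale (edgeR adjusted p = 0.583). Zwint, of the kinetochore, was at -0.47 ± 0.24 (adjusted p = 0.860), with all rIL-13 libraries below all vehicle libraries. Of the 32 tested, 4 lay lower without overlap and 2 higher, beside 5.94% and 5.76% of all tested genes.

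Of 35 transcription factors and brakes of the cycle 29 were listed and 13 tested, with none past the threshold. At an unadjusted p under 0.05 edgeR gave 1, against 5.49% of all tested genes. Of the 13, 3 lay above and 10 below 0, with a median of -0.22. Over all 29 listed, in the unfiltered fit, 10 lay above and 19 below 0, with a median of -0.19, where 51.6% of all genes were below 0. Cdkn1a (p21), an inhibitor of the cyclin-dependent kinases, had 659.6, 812 and 1142 CPM under vehicle and 602, 503 and 709.6 CPM under rIL-13, at -0.53 ± 0.24 (edgeR adjusted p = 0.860), and its groups overlapped. Trp53, the p53 gene, which switches Cdkn1a on, was at -0.60 ± 0.29 (adjusted p = 0.860), with all rIL-13 libraries lower. Of the 13 tested, 3 lay lower without overlap and 0 higher, beside 5.94% and 5.76% of all tested genes.

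**Figure D4:**
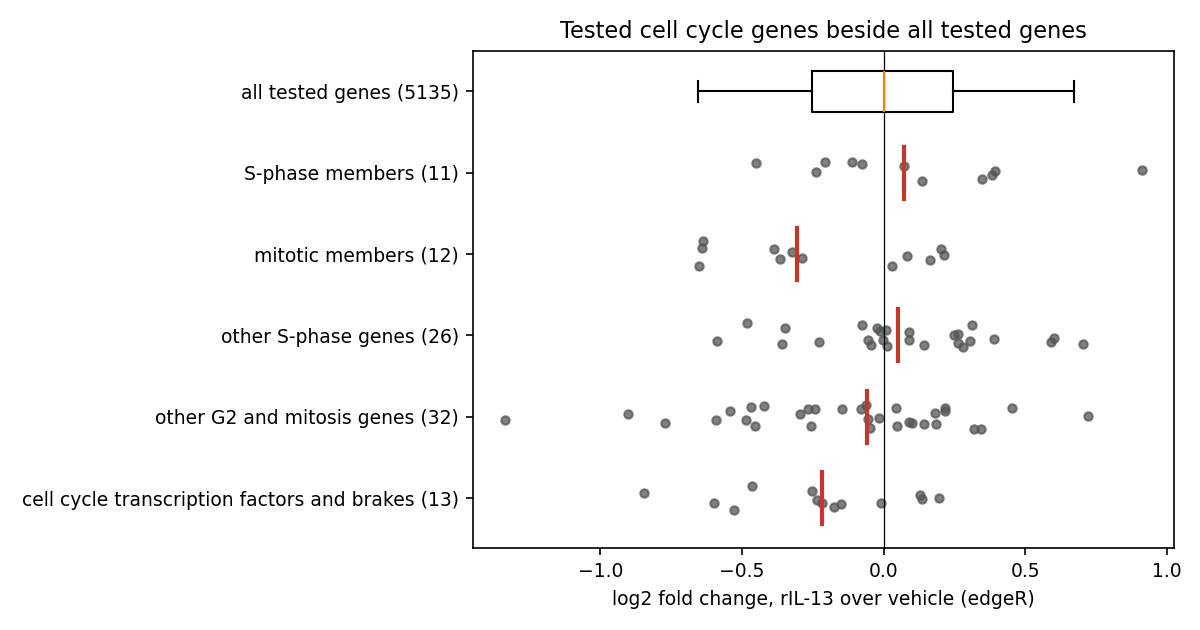
Log2 fold changes (edgeR) of tested S-phase and mitotic genes and of 3 lists of further cell cycle genes, each point a gene and each red line a median, below a box for all 5135 tested genes (median, quartiles, and whiskers at the 5th and 95th percentiles). The medians run from -0.30 for mitotic to 0.07 for S-phase genes.

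The authors' deposited table lists none of the 27 genes at an adjusted p under 0.05. After a change of sign, to put rIL-13 over vehicle, the authors' deposited table gives a median log2 fold change of 0.15 for the S-phase and -0.35 for the mitotic genes. These medians cover all 27 genes and equal those of DESeq2 run here on the same counts, so they are no separate evidence.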

How the data were processed

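The sample titles gave each library its group and replicate number. Per the submitters' processing notes, the tools were bcl2fastq, cutadapt, STAR 2.5.2b, HTSeq and DESeq2, with mm10 as the build; their roles are not given there. Per the file headers, the deposited table holds raw counts (UMIs per gene), a signal (counts divided by size factors, and their mean), regularized log2 values, and log2 fold changes and p-values of a comparison by the authors. The counts alone were tested. The authors' normalized signal and regularized log2 values were not used. The lowest maximum over libraries among listed genes is 6 UMIs, so the totals given need not be the full depth. How reads shared with near-identical copies were assigned is not given in the sources used here.

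edgeR 4.0.16 (R 4.3.3) was run on all genes: quasi-likelihood F test, robust, TMM factors, group as the single term, default filter (5135 genes, 93.8% of UMIs kept), Benjamini-Hochberg over all genes, two-sided, with a biological coefficient of variation of 24.9%. Standard errors are those implied by F. CPM uses TMM-scaled totals of the tested genes. Median deviations of a list in a library use log2(CPM + 1) against the vehicle mean. DESeq2 1.42.0, limma 3.58.1 (voom), other scaling factors and filters, a replicate block and leaving out each library were the alternatives. Tests were tested on simulated data.

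The genes and lists were chosen with earlier results of these data known. Full values are given for the 4 smallest p and the 3 highest mean CPM of each group, and for Mki67, Top2a, Pcna, Mcm2 and Ccnb1. Of each further list, the gene with the smallest p is given in full. The gene with the next smallest p is given without its CPM. Full values of Uhrf1 and Ccna2 were added after their values were seen. Promoters shown are those of the genes with the highest mean CPM that had one. Pcna was passed over because more than a short end of that stretch lies inside the gene in GENCODE M21.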

Additional observations from a re-analysis of the deposited data

How the results depend on the processing

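None of the 27 genes passed under any alternative that gave it a value. The 4 genes under the count filter had few: Ccna2 was run with DESeq2 alone, and Mcm4, Uhrf1 and Ccnb1 had no value with limma voom, other scaling factors or the block. Aurka without vehicle replicate 3 and Bub1b without vehicle replicate 2 had none either, being under the filter there. The smallest adjusted p among 337 values was 0.343, for Gins2 without rIL-13 replicate 1. In 312 of these 337 cases the direction of a gene was kept, and in 25 it turned, without a call on either side. With limma voom Mki67 was at -0.11. In the fit that left out both vehicle replicate 3 and rIL-13 replicate 1, Mcm2 was at -0.53, Mcm3 at -0.15, Rrm2 at 0.11 and Plk1 at 0.13.

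Leaving out each library in turn gave log2 fold changes of -0.36 to 0.018 for Pcna, -0.32 to 0.38 for Mcm2, -0.52 to 0.49 for Mcm3, -0.36 to 0.073 for Mcm6, -0.30 to 0.29 for Rrm2, -0.46 to 0.63 for Mki67, -0.14 to 0.35 for Ccnb2, -0.088 to 0.34 for Birc5, -0.21 to 0.26 for Stmn1 and -0.064 to 0.59 for Cenpa. Of the other genes given in full and past the filter, Mcm5 ranged from 0.27 to 0.52, Mcm7 from 0.16 to 0.50, Rrm1 from -0.48 to -0.11, Ccne1 from 0.51 to 1.37, Gins2 from -0.83 to -0.28, Ube2c from -0.88 to -0.48, Aurkb from -0.79 to -0.46, Aurka from -1.14 to -0.30, Plk1 from -0.56 to -0.11 and Top2a from -0.47 to -0.15. It gave medians of -0.16 to 0.39 for S-phase and -0.48 to -0.09 for mitotic genes, and a gap of -0.012 to 0.71. Without those 2 libraries, a choice made after seeing the data, the mitotic median was 0.056 and the gap -0.21. Under the other tools, scaling factors and filters, the block, and without Stmn1, each median and the gap moved by less than the SD between libraries. Counting Ccna2 with the S-phase genes could not move them, since Ccna2 was under the count filter of that fit.

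Over all genes, 3 passed in the edgeR fit, 6 with DESeq2, 0 with limma voom, 7 without a filter, 5 at adjusted p under 0.1, 1 to 29 with a library left out and 31 without those 2 libraries. With the replicate number as a block 13 passed. Deviations from the group means correlated at -0.072, 0.078 and -0.222 between same-numbered libraries, and at -0.197 to 0.248 between differently numbered ones. With 3 libraries per group these values cannot decide whether the numbers pair libraries. Why the counts of passing genes differ was not tested. The genes had 2 to 142 UMIs in a library, and the part of depth in the width of their intervals was not tested.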
